A study of Mus musculus with 9 samples.

Results

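Glycolysis and fatty acid oxidation genes were followed across 3 subsets of mouse γδ T cells, T cells whose antigen receptor is built from a γ and a δ chain. The list held 46 genes, 20 of glycolysis and pyruvate entry and 26 of fatty acid uptake, activation and oxidation. A gene was included where an array row carried its symbol and no other, and a gene with several rows was represented by the row of highest mean. This gave 41 genes, 17 of glycolysis and 24 of fatty acid oxidation, of 22180 genes with such a row. Gpi1, Aldoa, Eno1, Acsl1 and Acsl3 were not analysed here.

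All cells came from C57BL/6 mice, and the labels name no treatment, engineered allele, age or sex. The intraepithelial lymphocytes (IELs) are γδ T cells of the gut epithelium. The Naive-like and Type-1 subsets came from peripheral lymph nodes, so that tissue and subset differ together whenever IELs are compared. Each subset had 3 arrays labelled as biological replicates. The labels list staining antibodies but not the gates that define each subset, and do not say whether an array holds 1 mouse or a pool. The p-values below measure the spread between these arrays, which may in part be technical. In these bulk RNA samples, a lower share of cells that express a gene and less of its RNA per cell cannot be told apart.

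Glycolysis splits glucose to pyruvate in the cytosol, with hexokinase at its first step and phosphofructokinase at its committing step. Pyruvate then becomes lactate through lactate dehydrogenase or enters mitochondria through pyruvate dehydrogenase, which pyruvate dehydrogenase kinases switch off. Fatty acids are bound and activated to acyl-CoA, carried into mitochondria by the carnitine shuttle, and shortened by repeated rounds of dehydrogenation, hydration, oxidation and thiolysis. In T cells, activated effector cells are known for high glycolysis, and resting and many tissue-resident cells for reliance on fatty acids.

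Values are log2 expression after RMA, which corrects background, normalises arrays to one another and summarises probes. They ran from 0.785 to 13.5 over the whole array, with array medians of 4.25 to 4.43. A difference of 1 is a doubling, and levels are compared between subsets for the same gene, never between genes. Differences were tested with limma over all 22180 genes, and a gene passed where its Benjamini-Hochberg adjusted p was under 0.05. Differences had a median standard error of 0.24. Of the members, Hk2, Pfkm, Cd36, Ppara and Ppargc1a are dim, with a mean below the 40th percentile of genes. Abcd2 is the dim gene among the further genes that passed. A small difference in a dim gene says less than in a bright one. The median over genes of the mean log2 value was 4.52. Ldha, Hk3, Aldoc, Eno2 and Hadhb lie close to it, so the same limit bears on them. Across genes, the correlation was 0.947 to 0.982 within a subset and 0.912 to 0.975 between subsets.

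Cd3d, Cd3e, Cd3g, Ptprc, Zap70 and Lat, shared T cell genes, were high in all 9 arrays. Cd2 and Thy1 passed as lower in IELs against both lymph node subsets, and Cd3g and Zap70 as higher against Type-1 cells. Of 25 fixed markers of intestinal epithelium, 16 were higher in IELs against Naive-like cells and 15 against Type-1 cells. Their summed level (log2) was 10.70 to 11.65 in IELs, 8.97 to 9.13 in Naive-like cells and 9.02 to 9.16 in Type-1 cells. Of the 25, 24 had a positive difference between IELs and Naive-like cells, with a median of 1.61, against 10903 of all 22180 genes. The mean log2 level of 5 heat shock genes was 9.52 to 9.65 in IELs, 6.74 to 7.68 in Naive-like cells and 7.25 to 8.27 in Type-1 cells. For 4 cell division genes it was 4.69 to 5.69, 3.42 to 3.85 and 3.68 to 3.95. These levels move with every comparison that includes IELs, and their part in the differences below was not tested. Markers of B cells did not pass in any comparison (4 genes), and at most 5.19% of all genes passed in any of them. Of 6 myeloid markers, Itgam was higher in IELs against either lymph node subset. Of 3 αβ T cell markers, Cd8b1 passed as lower in IELs against Naive-like cells, with levels of 6.27 to 8.88 in IELs, 10.20 to 10.50 in Naive-like cells and 8.05 to 8.43 in Type-1 cells.

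In glycolysis, 3 of 17 genes passed between IELs and Naive-like cells. Pfkp, the platelet-type phosphofructokinase, and Tpi1, triose phosphate isomerase, rose in IELs, and Pdk1, a kinase that switches off pyruvate dehydrogenase, fell. That is 17.6% of the genes, against 5.19% of all genes tested, of which 3.57% were higher and 1.62% lower. In this comparison 6 genes had a positive and 11 a negative difference, and the median was -0.13 against -0.01 over all genes. Of all genes, 10903 had a positive and 11277 a negative difference. The difference was under 0.5 for 13 of 17 (76.5%), against 82.5% of all genes.

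Pfkp, which commits fructose 6-phosphate to glycolysis, was 8.52, 9.61 and 9.69 in the IEL arrays, 7.96, 7.28 and 8.34 in the Naive-like arrays, and 8.94, 9.02 and 9.23 in the Type-1 arrays. Both IELs and Type-1 cells lay above every Naive-like array, and they overlapped each other. The difference between IELs and Naive-like cells was 1.41 ± 0.33 (SE, limma adjusted p = 0.027), or 2.66-fold with a 95% interval of 1.61 to 4.39. Between Type-1 and Naive-like cells it was 1.20 ± 0.33, with an adjusted p of 0.33 in a comparison where few genes passed, and between IELs and Type-1 cells it was 0.21 ± 0.33. The call in IELs was lost when array medians were subtracted (adjusted p = 0.052) and without IEL array 2 (0.12), IEL array 3 (0.13), Naive-like array 1 (0.074) or Naive-like array 2 (0.11).

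The other phosphofructokinases did not follow Pfkp. Pfkl, the liver type, was -0.18 ± 0.21 and Pfkm, the muscle type, -0.31 ± 0.24 between IELs and Naive-like cells. Pfkm is dim, so the lack of a rise in it says less. The change of Pfkp relative to Pfkl was 1.59 in IELs and 1.05 in Type-1 cells against Naive-like cells, and relative to Pfkm it was 1.72 and 1.42. In these 4 comparisons the arrays of the subsets did not overlap, which gives an exact two-sided permutation p of 0.1, the smallest that 3 arrays against 3 allow. Over the 18 comparisons of related genes made here, the lowest adjusted value was 0.2. Pfkp alone already had no overlap in these comparisons. The p-values therefore largely repeat its own difference and are no separate support.

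Tpi1, which interconverts the triose phosphates made by aldolase, was 7.27, 8.15 and 7.61 in IELs, 6.07, 6.04 and 6.23 in Naive-like cells, and 6.91, 7.05 and 6.84 in Type-1 cells. The 3 subsets did not overlap, with IELs highest, Type-1 cells between and Naive-like cells lowest. IELs exceeded Naive-like cells by 1.57 ± 0.23 (limma adjusted p = 0.0011), or 2.96-fold with a 95% interval of 2.10 to 4.18. Type-1 cells differed from Naive-like cells by 0.82 ± 0.23 (adjusted p = 0.35), and IELs from Type-1 cells by 0.75 ± 0.23 (0.096). The call between IELs and Naive-like cells was kept under each of the 19 alternatives run.

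Pdk1 was 5.03, 4.85 and 5.06 in IELs, 6.14, 6.42 and 6.48 in Naive-like cells, and 6.28, 5.00 and 6.09 in Type-1 cells. IELs lay below every Naive-like array, and Type-1 array 2 lay with the IELs while the other Type-1 arrays lay with the Naive-like cells. The difference between IELs and Naive-like cells was -1.37 ± 0.29 (limma adjusted p = 0.015), a level 2.58-fold lower with a 95% interval of 1.66 to 4.01. The second row of Pdk1 is dim, with a mean of 2.50, and differed by -0.42, and the mean of the rows did not pass (-0.89, adjusted p = 0.084). The call was also lost without IEL array 2 (0.070), Naive-like array 2 (0.057) or Naive-like array 3 (0.067). Pdha1, the subunit of pyruvate dehydrogenase on which these kinases act, differed by -0.18 ± 0.21.

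The remaining control points of glycolysis did not pass. Hk2, the inducible hexokinase, was 4.27, 4.83 and 3.87 in IELs, 3.75, 3.96 and 3.77 in Naive-like cells, and 4.19, 3.77 and 3.45 in Type-1 cells. IEL arrays 1 and 2 were the highest, but the third overlapped the other subsets, and the difference from Naive-like cells was 0.50 ± 0.27 (limma adjusted p = 0.47). Hk1, the constitutive hexokinase, differed by 0.01 ± 0.23 and Hk3 by -0.22 ± 0.18. Pfkfb3, which makes the activator of phosphofructokinase, was 5.02, 5.32 and 5.75 in IELs, 5.57, 5.49 and 5.92 in Naive-like cells, and 5.54, 4.77 and 5.43 in Type-1 cells, so that all 3 overlapped.

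Pkm, pyruvate kinase, was 7.74, 8.74 and 8.67 in IELs, 8.22, 8.07 and 8.62 in Naive-like cells, and 7.68, 8.0 and 8.47 in Type-1 cells. Its arrays overlapped throughout, and the 95% interval of the difference between IELs and Naive-like cells, -0.57 to 0.73, still admits a change of either sign. Ldha, the lactate dehydrogenase subunit tied to lactate output, was 4.88, 5.00 and 4.84 in IELs, 4.98, 4.76 and 5.22 in Naive-like cells, and 4.59, 4.97 and 4.81 in Type-1 cells. It too overlapped in every comparison, at -0.08 ± 0.20 between IELs and Naive-like cells (95% interval -0.51 to 0.34) and -0.20 ± 0.20 between Type-1 and Naive-like cells (-0.62 to 0.23). The row of Ldha lies close to the median of genes, so its lack of a difference says less. Ldhb, the other subunit, differed by -0.13 ± 0.20 between IELs and Naive-like cells.

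Aldoc, Pgk1, Pgam1 and Eno2, of other steps, passed in no comparison. Aldoc, an aldolase, differed by -0.24 ± 0.27 and Pgk1, phosphoglycerate kinase, by -0.09 ± 0.22 between IELs and Naive-like cells. Pgam1, phosphoglycerate mutase, was 7.78, 7.56 and 7.61 in IELs, 7.45, 7.23 and 7.68 in Naive-like cells, and 8.17, 7.91 and 8.22 in Type-1 cells. The Type-1 arrays stood above all others, by 0.64 ± 0.19 over Naive-like cells (limma adjusted p = 0.43), and the second row of the gene gave 0.38. Between IELs and Type-1 cells the rows of Pgam1 differed in sign, at -0.45 and 0.13. Eno2, an enolase known best from neurons, was 4.43, 4.19 and 4.11 in IELs, 4.95, 4.67 and 4.70 in Naive-like cells, and 4.87, 4.93 and 4.78 in Type-1 cells. The IEL arrays were the lowest in both comparisons, at -0.53 ± 0.18 (adjusted p = 0.16) and -0.62 ± 0.18 (0.087).

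No glycolysis gene passed limma's test between Type-1 and Naive-like cells, where 0.284% of all genes passed. There 3 of the 17 (17.6%) had an unadjusted p under 0.05, against 6.48% of all genes. None passed between IELs and Type-1 cells, where 5.14% of all genes passed, 3.73% higher and 1.41% lower. There 5 of the 17 (29.4%) had an unadjusted p under 0.05, against 16.3% of all genes. When arrays were weighted by their quality, Tpi1 (higher) and Eno2 (lower) passed in the latter comparison. Without IEL array 1, Tpi1 passed there, and without Type-1 array 2, Pdk1 passed as lower. Arrays did not overlap for 5 of 17 genes (29.4%) between IELs and Naive-like cells, 3 (17.6%) between Type-1 and Naive-like cells and 4 (23.5%) between IELs and Type-1 cells, against 20.1%, 11.4% and 19.8% of all genes.

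**Figure D1:**
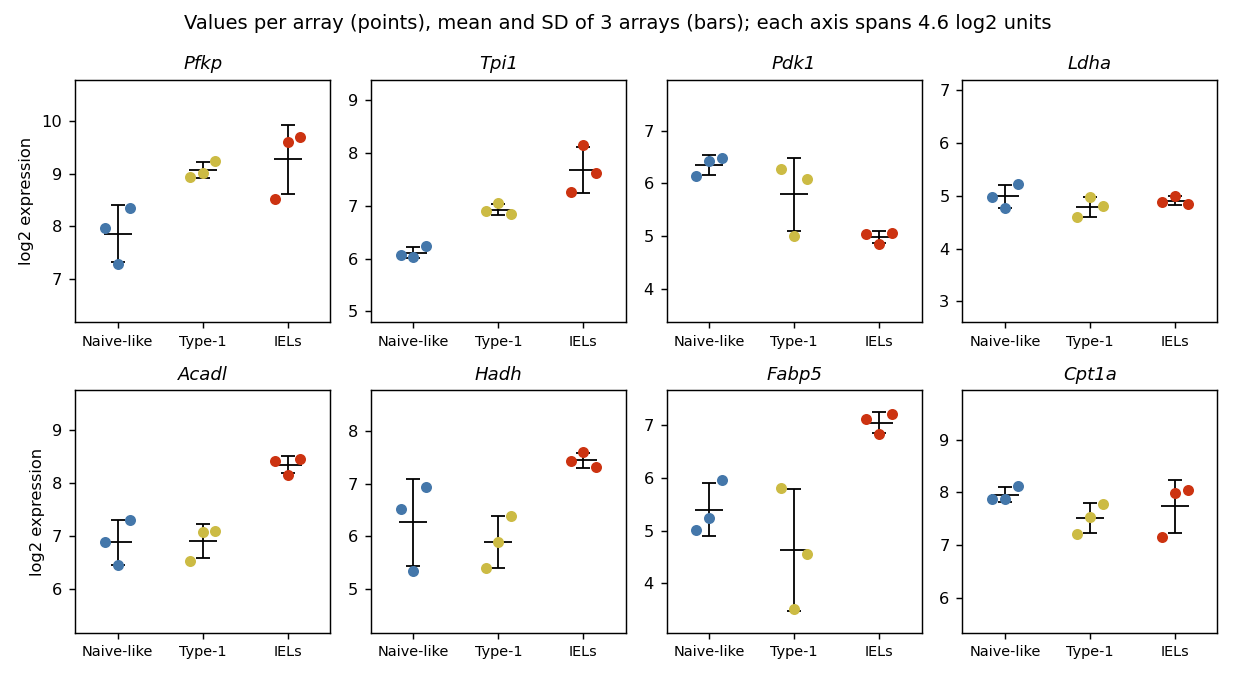
Log2 expression (y axis, each panel spanning 4.6 log2 units) of 8 genes in the Naive-like, Type-1 and IEL subsets (x axis), with 1 point per array and the mean and SD of 3 arrays as bars. The IEL arrays stand above the Naive-like arrays for Tpi1 and Acadl and below them for Pdk1, while those of Ldha overlap.

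The sequences before the transcription start were searched for letters tied to glycolytic control. ACGTG, a form of the core bound by hypoxia-inducible factors, was searched on both strands upstream of each RefSeq start (build GRCm38.p6). The search covered 250 bases, and 44 of the 46 listed genes had a window. ACGTG was found for 9 of 20 glycolysis genes (45.0%), 3 of 24 fatty acid oxidation genes (12.5%) and 18.5% of 27025 genes. A gene counted where any of its windows matched, and 10 members had over 1 window. The shares were not matched for number of windows or GC content, whose median over all windows was 52.4%. CACGTG, which holds ACGTG on both strands and is bound by Myc and related factors, was found for 3 of 20 (15.0%), 0 of 24 and 6.86%. A match describes letters in this window and is neither a site nor a cause. Other forms of the hypoxia-inducible factor core, such as GCGTG, which the Pfkp window printed below holds, were not searched.

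Between IELs and Naive-like cells, the median difference was -0.09 over the 8 measured glycolysis genes with ACGTG (-0.31 to 0.50) and -0.18 over the 9 without it (-1.37 to 1.57), which include Pfkp, Tpi1 and Pdk1. For fatty acid oxidation it was -0.44 over 3 genes with the letters and 0.24 over 19 without. No difference between genes with and without the letters was tested. The windows of Ldha and Pgk1, which carry ACGTG, and of Pfkp and Tpi1, which do not, are given so that they can be compared. Capitals mark these letters on either strand, and each sequence runs 5′ to 3′ on the strand of the gene. Ldha lies at chr7:46845554-46845803 (+), Pgk1 at chrX:106186850-106187099 (+), Pfkp at chr13:6648772-6649021 (-) and Tpi1 at chr6:124814159-124814408 (-).
Ldha: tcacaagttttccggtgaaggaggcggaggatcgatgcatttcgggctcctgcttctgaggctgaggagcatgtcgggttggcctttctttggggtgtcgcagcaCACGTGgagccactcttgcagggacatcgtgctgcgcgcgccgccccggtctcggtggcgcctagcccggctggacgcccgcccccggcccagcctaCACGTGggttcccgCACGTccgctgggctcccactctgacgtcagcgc
Pgk1: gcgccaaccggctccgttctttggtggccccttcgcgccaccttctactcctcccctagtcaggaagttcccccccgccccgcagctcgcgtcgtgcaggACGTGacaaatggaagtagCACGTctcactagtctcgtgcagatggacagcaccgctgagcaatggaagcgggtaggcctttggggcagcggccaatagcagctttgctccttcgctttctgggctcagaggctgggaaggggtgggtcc
Pfkp: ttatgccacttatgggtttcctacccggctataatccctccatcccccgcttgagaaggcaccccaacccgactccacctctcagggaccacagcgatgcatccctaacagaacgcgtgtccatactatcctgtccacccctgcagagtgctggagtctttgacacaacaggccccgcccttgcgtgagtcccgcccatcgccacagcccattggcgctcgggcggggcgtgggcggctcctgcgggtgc
Tpi1: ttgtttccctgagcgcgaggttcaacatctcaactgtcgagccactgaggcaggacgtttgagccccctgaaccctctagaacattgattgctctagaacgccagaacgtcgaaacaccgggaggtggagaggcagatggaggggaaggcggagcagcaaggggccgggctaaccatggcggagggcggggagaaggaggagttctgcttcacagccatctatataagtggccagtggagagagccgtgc
Ldha has its matches at bases -145, -144, -48, -47 and -34 from the start site, of which 4 come from 2 copies of CACGTG, and Pgk1 at -150 and -131. A second RefSeq start of Ldha has a window without the letters.

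In fatty acid oxidation, 1 of 24 genes passed between IELs and Naive-like cells and 3 of 24 between IELs and Type-1 cells, all higher in IELs. Acadl, the long-chain acyl-CoA dehydrogenase, passed in both. Hadh, which oxidises the hydroxyacyl-CoA intermediate, and Fabp5, a carrier of fatty acids in the cytosol, passed against Type-1 cells. These shares were 4.17% against 5.19% of all genes and 12.5% against 5.14%. Of the 24 genes, 18 had a positive difference against Naive-like cells (median 0.24) and 21 against Type-1 cells (median 0.22). Of all 22180 genes, 10903 and 10153 did. The genes were measured on the same arrays, so these counts are not of independent observations. The medians over all genes were -0.01 and -0.03, and 17 of the 24 (70.8%) differed by less than 0.5 in each comparison, against 82.5% and 79.9% of all genes.

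Acadl was 8.42, 8.16 and 8.47 in IELs, 6.88, 6.45 and 7.29 in Naive-like cells, and 6.52, 7.08 and 7.09 in Type-1 cells. Every IEL array lay above all 6 lymph node arrays, which overlapped one another. The difference was 1.48 ± 0.25 from Naive-like cells (limma adjusted p = 0.0033, 2.78-fold with a 95% interval of 1.91 to 4.05) and 1.45 ± 0.25 from Type-1 cells (adjusted p = 0.0040, 2.74-fold, 1.88 to 3.99). Type-1 and Naive-like cells differed by 0.02 ± 0.25. Both calls were kept under each of the 19 alternatives run.

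The other acyl-CoA dehydrogenases, which take chains of other lengths, did not follow. Acadm (medium-chain) was -0.11 ± 0.39, Acads (short-chain) 0.35 ± 0.22 and Acadvl (very-long-chain) -0.60 ± 0.19 between IELs and Naive-like cells, none passing. The IEL arrays of Acadvl, at 5.90 to 6.01, lay below all others, which were 6.24 to 6.81. Relative to Acadvl, Acadl changed by 2.08 against Naive-like and 1.88 against Type-1 cells, with no overlap of arrays (exact permutation p = 0.1 in each). Relative to Acads the changes were 1.13 and 1.24 (0.1 in each), and relative to Acadm 1.59 (0.1) and 1.35 (0.3). Acadl alone already had no overlap between IELs and either lymph node subset. These p-values therefore largely repeat its own difference and are no separate support.

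Hadh was 7.43, 7.60 and 7.32 in IELs, 6.52, 5.34 and 6.94 in Naive-like cells, and 5.40, 5.90 and 6.39 in Type-1 cells. All IEL arrays were above the lymph node arrays, whose spread was wide, with Naive-like array 2 as low as any Type-1 array. The difference was 1.55 ± 0.37 from Type-1 cells (limma adjusted p = 0.028, 2.93-fold with a 95% interval of 1.69 to 5.09) and 1.18 ± 0.37 from Naive-like cells (adjusted p = 0.10). The call was lost without any 1 of the IEL arrays (0.064, 0.11 and 0.078) and without Type-1 array 1 (0.10) or 2 (0.075).

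Fabp5 was 7.11, 6.84 and 7.21 in IELs, 5.01, 5.24 and 5.96 in Naive-like cells, and 5.82, 3.52 and 4.56 in Type-1 cells. The IEL arrays were close to each other and above all the rest, while the Type-1 arrays ran over a wide range that overlapped the Naive-like arrays. The difference was 2.42 ± 0.46 from Type-1 cells (limma adjusted p = 0.0072, 5.36-fold with a 95% interval of 2.70 to 10.7) and 1.65 ± 0.46 from Naive-like cells (adjusted p = 0.061). The gene has 4 rows, which gave 2.42, 2.49, 0.14 and 0.04 against Type-1 cells, the last 2 being dim, with means of 3.74 and 2.07. Against Type-1 cells the mean of the rows gave 1.27 (limma adjusted p = 0.016), and without Type-1 array 1 the difference was 3.02 (0.00028). These were the lowest and highest differences over the 19 alternatives. Type-1 array 2, at 3.52, was the lowest of its subset, and leaving it out makes the difference smaller. Fabp5 passed against Naive-like cells without Type-1 array 1 or Type-1 array 2, and Hadh without Naive-like array 3.

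The windows of Acadl at chr1:66863310-66863559 (-) and Hadh at chr3:131272102-131272351 (-) are shown because these genes were higher in IELs. Both were searched for AGGTCA, the element that nuclear receptors of the PPAR family bind as a spaced repeat. Neither window holds it on either strand, so no letters are in capitals.
Acadl: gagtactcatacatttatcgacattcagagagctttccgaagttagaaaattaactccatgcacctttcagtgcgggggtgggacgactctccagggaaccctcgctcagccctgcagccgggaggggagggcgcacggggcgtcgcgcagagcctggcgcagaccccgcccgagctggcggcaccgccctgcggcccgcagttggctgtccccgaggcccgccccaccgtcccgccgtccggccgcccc
Hadh: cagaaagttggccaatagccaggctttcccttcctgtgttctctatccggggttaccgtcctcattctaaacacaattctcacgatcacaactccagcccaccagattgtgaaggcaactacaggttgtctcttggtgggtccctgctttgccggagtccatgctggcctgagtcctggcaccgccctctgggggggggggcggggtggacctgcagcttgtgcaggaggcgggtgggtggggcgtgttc
Across genes, AGGTCA was found for 5 of 24 fatty acid oxidation genes (20.8%, Cd36, Cpt1a, Acadm, Acadvl and Echs1), 5 of 20 glycolysis genes (25.0%) and 15.8% of all genes. The 2 copies spaced by 1 base that PPAR receptors bind were found for neither list and for 0.0407% of all genes.

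Upstream of oxidation, Cd36, a fatty acid transporter, differed by 0.10 ± 0.20 between IELs and Naive-like cells. Lipa, the lysosomal lipase, was 7.13, 6.90 and 7.00 in IELs, 7.82, 6.97 and 7.66 in Naive-like cells, and 5.77, 6.42 and 7.09 in Type-1 cells. Type-1 arrays 1 and 2 were the lowest of all, the third overlapped the other subsets, and the difference from Naive-like cells was -1.05 ± 0.32 (limma adjusted p = 0.42). Pnpla2, the lipase of lipid droplets, differed by 0.63 ± 0.32 between IELs and Naive-like cells, and the acyl-CoA synthetases Acsl4 and Acsl5 by 0.61 ± 0.32 and 0.21 ± 0.26. None of these passed.

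Cpt1a, the carnitine palmitoyltransferase that gates mitochondrial entry, was 7.15, 7.995 and 8.05 in IELs, 7.88, 7.88 and 8.11 in Naive-like cells, and 7.21, 7.53 and 7.78 in Type-1 cells. IEL array 1 was the lowest of all 9, and the other 2 stood at the level of Naive-like cells. The differences were -0.22 ± 0.26 between IELs and Naive-like cells (95% interval -0.79 to 0.34) and -0.45 ± 0.26 between Type-1 and Naive-like cells, whose arrays did not overlap (limma adjusted p = 0.85). Cpt2, which frees the acyl group inside, differed by 0.34 ± 0.29 between IELs and Naive-like cells.

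Of the later steps, Hadhb, the thiolase subunit of the trifunctional protein, was 5.13, 5.00 and 4.89 in IELs, 4.70, 4.08 and 5.23 in Naive-like cells, and 4.18, 3.14 and 5.52 in Type-1 cells. Its Type-1 SD of 1.19 was the largest of the members in any subset, and the array ranges overlapped. Hadha, the other subunit, differed by only 0.02 ± 0.21 between IELs and Naive-like cells. Echs1, the hydratase, differed by -0.17 ± 0.33, and the thiolases Acaa1a and Acaa2 by 0.23 ± 0.20 and 0.36 ± 0.28. The electron transfer genes Etfa, Etfb and Etfdh, which pass electrons from the dehydrogenases to the respiratory chain, were 0.53 ± 0.32, 0.46 ± 0.19 and 0.24 ± 0.31. Only Etfb of these had IEL arrays above all Naive-like and all Type-1 arrays, with 8.51 to 8.73 against 8.09 to 8.16 and 7.96 to 8.45, and it did not pass (limma adjusted p = 0.27 against Naive-like cells).

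The regulators did not pass either. Ppara, a nuclear receptor that drives fatty acid catabolism in liver, was 3.69, 3.91 and 3.46 in IELs, 3.69, 3.54 and 3.27 in Naive-like cells, and 3.33, 3.66 and 3.53 in Type-1 cells, overlapping throughout. Ppargc1a, a coactivator of mitochondrial genes, was 3.47, 4.06 and 3.35 in IELs, 3.89, 4.15 and 4.18 in Naive-like cells, and 3.81, 3.59 and 3.24 in Type-1 cells. Its Naive-like arrays stood above the Type-1 arrays (-0.52 ± 0.24, limma adjusted p = 0.76). Ppard, the related receptor of many tissues, was 5.70, 6.69 and 6.31 in IELs, 5.83, 5.97 and 6.34 in Naive-like cells, and 4.87, 5.54 and 5.90 in Type-1 cells. Its differences were 0.18 ± 0.31, -0.61 ± 0.31 and 0.79 ± 0.31 in the order used above, with adjusted p of 0.20 in the last.

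No fatty acid oxidation gene passed limma's test between Type-1 and Naive-like cells, where 2 of 24 (8.33%) had an unadjusted p under 0.05, against 6.48% of all genes. Arrays did not overlap for 6 of 24 (25.0%) between IELs and Naive-like cells, 2 (8.33%) between Type-1 and Naive-like cells and 5 (20.8%) between IELs and Type-1 cells. These compare with 20.1%, 11.4% and 19.8% of all genes.

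**Figure D2:**
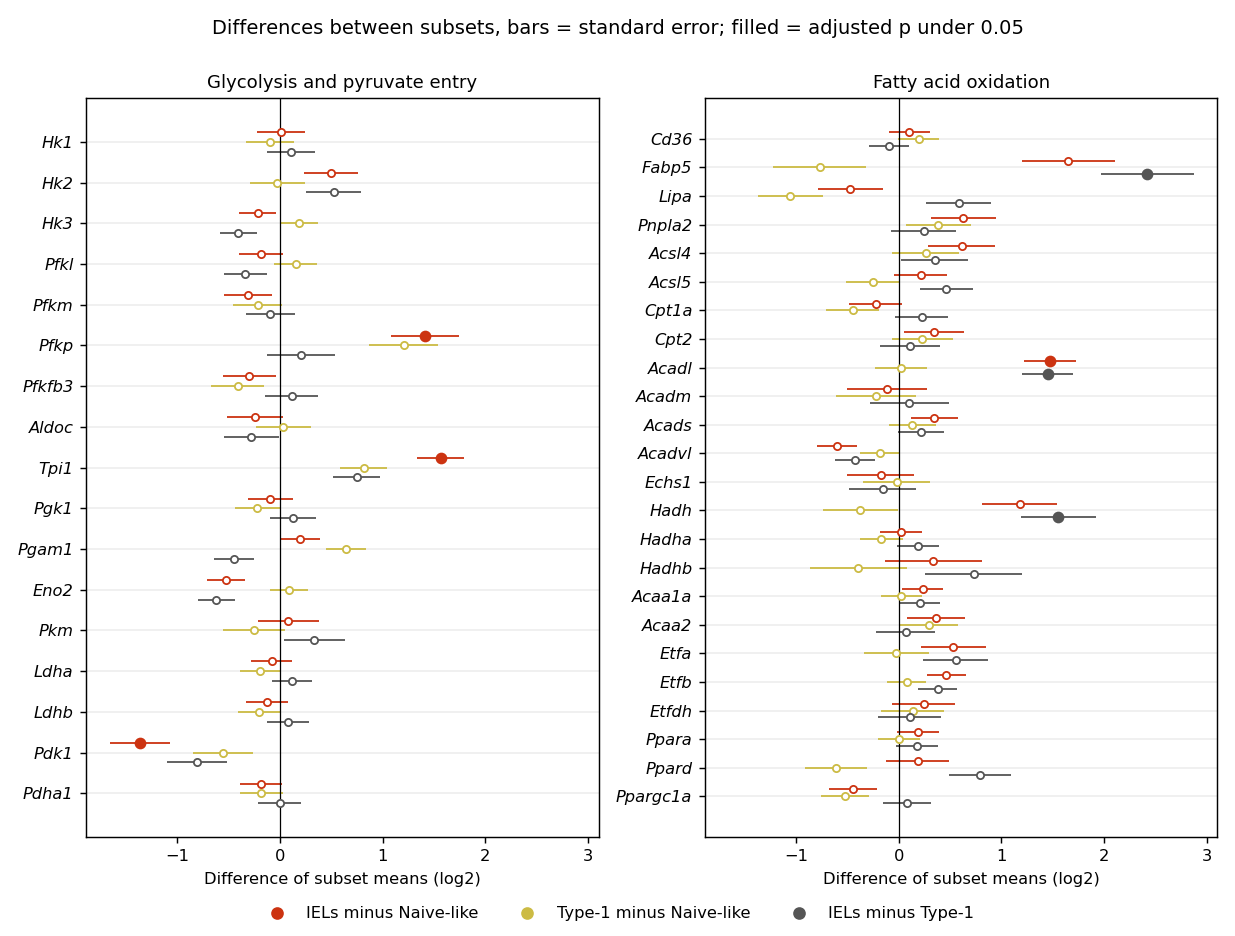
Difference of subset means (log2, x axis) with its standard error for each gene (y axis) of glycolysis and pyruvate entry (left) and fatty acid oxidation (right), in 3 comparisons by colour. Filled points have an adjusted p under 0.05: Pfkp, Tpi1 and Pdk1 on the left, and Acadl, Hadh and Fabp5 on the right.

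The pathways were set side by side by each array's mean deviation from every gene's own mean. For fatty acid oxidation it was 0.15, 0.36 and 0.21 in IELs, -0.07, -0.31 and 0.22 in Naive-like cells, and -0.16, -0.42 and 0.01 in Type-1 cells. The IEL arrays were above zero, but Naive-like array 3 was as high as IEL array 3, so the subsets overlapped. For glycolysis it was -0.13, 0.07 and 0.02 in IELs, -0.01, -0.16 and 0.12 in Naive-like cells, and 0.00, -0.04 and 0.12 in Type-1 cells, with no order of subsets. Over all genes it was -0.03 to 0.04. No test was made on these list means.

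**Figure D3:**
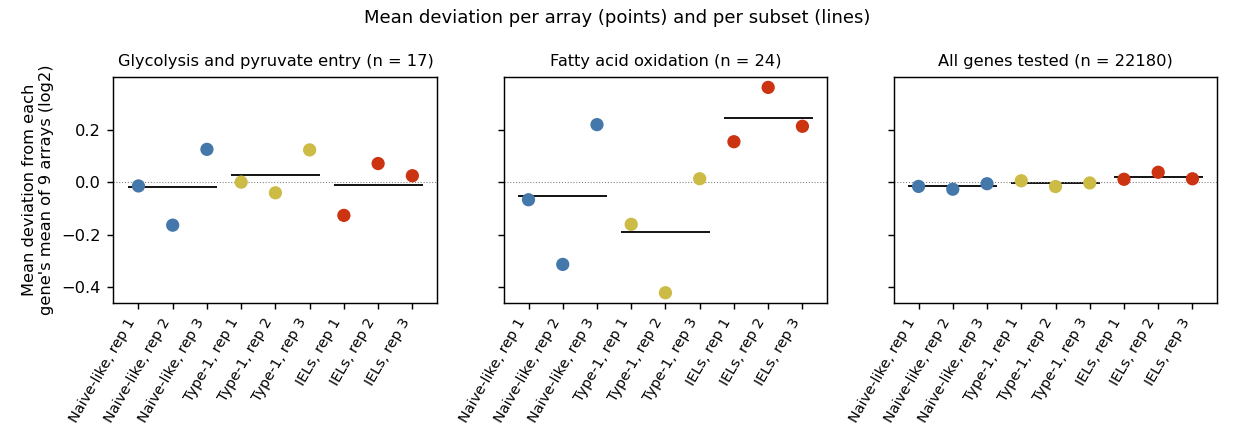
Mean deviation per array from each gene's mean of 9 arrays (log2, y axis) for the 17 glycolysis genes, the 24 fatty acid oxidation genes and all genes tested, with 1 point per array (x axis) and a line at each subset's mean. The fatty acid oxidation means of the IEL arrays are 0.15 to 0.36, and Naive-like array 3 reaches 0.22.

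One array stood low within its subset for many of these genes. Naive-like array 2 was the lowest of its subset for 13 of 17 glycolysis genes (76.5%) and 14 of 24 fatty acid oxidation genes (58.3%), against 33.4% of all genes. Among the other subsets, no array was lowest for more than 10 of 24 fatty acid oxidation genes (41.7%), the count of both IEL array 3 and Type-1 array 2, against 34.2% and 31.9% of all genes. The median SD of fatty acid oxidation genes was 0.22 in IELs, 0.26 in Naive-like cells and 0.38 in Type-1 cells, and over all genes it was 0.25, 0.23 and 0.27. For glycolysis genes it was 0.17, 0.23 and 0.25.

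**Figure D4:**
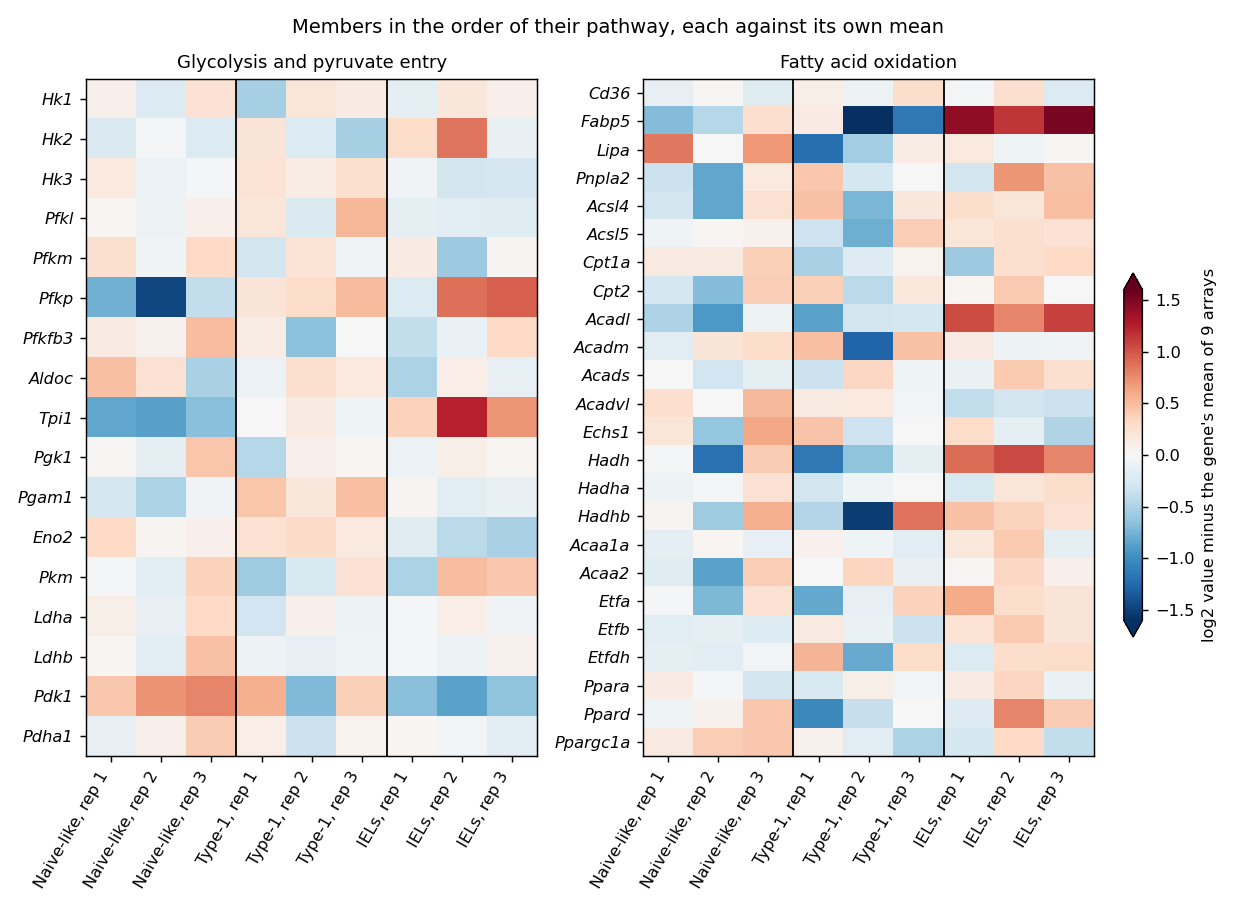
Each row is a gene of glycolysis and pyruvate entry (left) or fatty acid oxidation (right), each column an array (rep is the replicate number), and the colour is the log2 value minus the gene's mean of 9 arrays, cut at 1.6 in either direction. The IEL columns are raised for Tpi1, Acadl, Hadh and Fabp5 and lowered for Pdk1.

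The remaining genes of both pathways were counted from fixed lists. Of 32 further glycolysis and pyruvate genes, 1 passed between IELs and Naive-like cells, none between Type-1 and Naive-like cells and 4 between IELs and Type-1 cells, all higher in IELs. These are shares of 3.12% against 5.19% of all genes, and 12.5% against 5.14%. Pgm2, a phosphoglucomutase family enzyme, differed by 1.06 ± 0.24 against Naive-like cells (limma adjusted p = 0.019) and 0.91 ± 0.24 against Type-1 cells (0.047). Against Type-1 cells, Slc16a1, a carrier of lactate and pyruvate, differed by 1.67 ± 0.30 (0.0051), Fbp2, a fructose bisphosphatase, by 1.23 ± 0.29 (0.027) and Pdp2, which switches pyruvate dehydrogenase on, by 0.84 ± 0.20 (0.028). The call of Pgm2 against Naive-like cells was lost without IEL array 2 or 3 or Naive-like array 1 or 2 (adjusted p of 0.080 to 0.092). Against Type-1 cells it was kept under 4 of 10 settings and without 3 of the 9 single arrays, being lost without IEL array 2 or 3, Naive-like array 1 or any Type-1 array (0.064 to 0.17). Fbp2 was lost without IEL array 1 or 2 or Type-1 array 1 or 3 (0.057 to 0.12). Pdp2 was lost without IEL array 1 or 3 or Type-1 array 1 or 2 (0.056 to 0.11), with cyclic loess scaling (0.056) and with only those subsets fitted (0.072). Gapdh differed by 0.08 ± 0.22 between IELs and Naive-like cells.

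Of 50 further fatty acid genes, 3 passed between IELs and Naive-like cells, none between Type-1 and Naive-like cells and 2 between IELs and Type-1 cells, all higher in IELs. These shares, 6.0% against 5.19% of all genes and 4.0% against 5.14%, are near the background. Plin2, which coats lipid droplets, differed by 1.34 ± 0.20 against Naive-like cells (limma adjusted p = 0.0013) and 1.57 ± 0.20 against Type-1 cells (0.00045). Abcd2, a peroxisomal fatty acid transporter, differed by 1.29 ± 0.25 (0.0077) and 1.18 ± 0.25 (0.016), and Decr2, a peroxisomal reductase of unsaturated acyl-CoA, by 1.86 ± 0.38 against Naive-like cells (0.011). Plin2 passed under all 19 alternatives. Decr2 was lost without Naive-like array 1 (0.055) or 2 (0.051), and Abcd2 against Type-1 cells without IEL array 1 (0.052) or 3 (0.083). The medians of these lists were 0.11, -0.02 and 0.14 for glycolysis and 0.06, 0.04 and 0.20 for fatty acids, in the order used above.

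Replicate 3 of each subset carries a 6-digit code in its description that the other arrays lack, and its meaning is not given. Computed from the arrays without the code and from those with it, the difference of Tpi1 between IELs and Naive-like cells was 1.66 and 1.38. It was 1.44 and 1.35 for Pfkp, -1.34 and -1.43 for Pdk1, and 1.63 and 1.17 for Acadl. Between IELs and Type-1 cells it was 2.31 and 2.65 for Fabp5, 1.86 and 0.93 for Hadh, and 1.49 and 1.37 for Acadl. The arrays with the code are a single array per subset. For these genes the arrays of the subsets compared did not overlap, so both groups of arrays had to give the same direction. With the 2 arrays per subset that lack the code, Tpi1 and Acadl still passed limma's test, while Pfkp (adjusted p = 0.14), Pdk1 (0.19), Fabp5 (0.13) and Hadh (0.056) did not. Of the further genes named, Plin2 and Decr2 passed there, and Pgm2, Slc16a1, Fbp2, Pdp2 and Abcd2 did not. The comparisons with IELs share the IEL arrays and those with Naive-like cells share the Naive-like arrays, so they are not independent.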

How the data were processed

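Total RNA from 9 samples of γδ T cells, 3 per subset, was measured on Affymetrix arrays. The authors deposited log2 expression values, which the submitters' processing notes attribute to oligo and RMA (versions and genome build: not given in the sources used here). Of 41345 rows, 23521 named 1 gene symbol in the platform table, 1814 several and 16010 none. Rows of several symbols were left out, and the row of highest mean stood for a gene. Of the measured members, Hk1 and Ppard each had a further row of several symbols, which was not examined. The Entrez identifiers of 23328 rows were found in the RefSeq gene table and changed 0 symbols. limma 3.58.1 (R 4.3.3) was fitted to 22180 genes over all 9 arrays, without a covariate, with 6 residual and 6 prior degrees of freedom, and p-values were adjusted by Benjamini-Hochberg. On simulated data for IELs against Naive-like cells (22180 genes), 42.0% of 100 genes changed by 1 on the log2 scale and 99.0% of 100 changed by 2 were recovered, with 13 false calls. Fewer genes were changed there than the 1152 that passed between IELs and Naive-like cells. Between Type-1 and Naive-like cells 63 passed. The adjusted threshold depends on how many genes change, so these shares are not the recovery of the real fits. The number of arrays limits the precision.

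Every measured member was named. Values on every array were given for members that passed, for 8 control points, and for the 3 largest differences per pathway among members that passed nowhere. Other pathway genes were named where they passed. The members, lists and tests were chosen with earlier results of these data known. Alternatives covered dim genes (below the 40th percentile), array scaling, spread, weights, rows per gene, subsets fitted, replicate and code terms, and single arrays left out.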

Additional observations from a re-analysis of the deposited data

How the results depend on the processing

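The fits were repeated under 10 other settings and with each of 9 arrays left out. Across the 17 named gene comparisons, 267 of 321 values stayed past the threshold, 54 kept direction but missed it, and 0 reversed. These comparisons were named because they passed, and their arrays did not overlap, so leaving out arrays could not reverse a direction. Several of the other settings leave the difference as it was and alter only its p-value. The lack of reversals is therefore no test of the directions. Counts of passing genes moved as follows. The share of all genes that passed under each setting is not set beside them, so a moved count is not a result about these lists. For glycolysis between IELs and Naive-like cells (3 genes), 1 passed on the arrays without the code, 2 with array medians subtracted, 2 with the mean of rows, 4 with array weights (adding Eno2, lower) and 1 to 3 with single arrays left out (1 without IEL array 2 or Naive-like array 2). For glycolysis between IELs and Type-1 cells (0 genes), 2 passed with array weights and 0 to 1 with single arrays left out. For fatty acid oxidation between IELs and Naive-like cells (1 gene), 2 passed without dim genes, 2 with only those subsets fitted, 4 with array weights and 1 to 2 with single arrays left out. Deviations of same-numbered arrays correlated at -0.01 to 0.38 (0.23 to 0.38 for replicate 3) and those of different-numbered arrays at -0.29 to 0.21, and not every array correlated best with its own number, so the numbers were not treated as pairs. The replicate block gave 2 genes for fatty acid oxidation between IELs and Naive-like cells, adding Fabp5, and changed no other count of these lists, though Pgm2 no longer passed against Type-1 cells (adjusted p = 0.051). For fatty acid oxidation between IELs and Type-1 cells (3 genes), 1 passed on the arrays without the code, 4 with array weights (adding Ppard) and 2 to 3 with single arrays left out. Between Type-1 and Naive-like cells 0 passed under every setting run, for both pathways. Array weights ranged from 0.441 (IEL array 1) to 2.15 (Naive-like array 1). With 3 arrays per subset, a doubling is missed more often than found in the simulation, so a gene that did not pass is not shown to be equal.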
